A study of Arabidopsis thaliana with 18 samples.

Results

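Gene expression was compared between mannitol-treated seedlings of the Arabidopsis thaliana pyl duodecuple line and of the Col-0 wild type. The comparison covers the 4396 genes, of 6740 in the deposited table, whose value reached 5 FPKM in the higher of these 2 groups. FPKM are fragment counts relative to transcript length and to the size of the library. The duodecuple line carries mutations in 12 of the 14 PYR/PYL abscisic acid receptor genes, namely PYR1, PYL1, PYL2, PYL3, PYL4, PYL5, PYL7, PYL8, PYL9, PYL10, PYL11 and PYL12. Whole seedlings of both genotypes, 9 days old and in the Col-0 background, were kept on filter paper for 24 h with 300 mM mannitol, a sugar alcohol that withdraws water from tissue. Parallel groups received 100 µM abscisic acid (ABA) or a mock treatment (control). Each of the 6 groups held 3 libraries, 18 in all. The table gives 1 value per group, so the spread between libraries and the depth behind a value are unknown, and no difference between the genotypes could be tested. Differences are therefore described as log2 ratios of (FPKM + 1), duodecuple over wild type, and counted where they reach 2-fold. The table lists only genes that the authors called as changed by a treatment in at least 1 genotype, so shares below are shares of that table and not of the genome.

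ABA accumulates when plant tissue loses water. It binds PYR/PYL receptors, which then hold clade A type 2C protein phosphatases (PP2C). This frees SnRK2 kinases to phosphorylate transcription factors of the ABF/AREB family, and these act through promoter elements known as ABRE. Genes for dehydrins, other late embryogenesis abundant (LEA) proteins and the PP2Cs themselves are among the known outputs. Osmotic stress also reaches genes by routes that do not need ABA. In leaves ABA is known to act against defence signalling by salicylate and by joint jasmonate and ethylene signals.

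Under mannitol, 677 members were at least 2-fold higher in the duodecuple line than in wild type (15.4% of 4396) and 873 were at least 2-fold lower (19.9%). The median log2 ratio over all members was 0.04, and the 5th and 95th percentiles were -2.17 and 1.75. At 4-fold the counts were 160 higher (3.64%) and 274 lower (6.23%). Genes of the dehydration response, PP2Cs, heat shock proteins and root hair markers lay on the lower side. Defensins, genes of salicylate and jasmonate signalling, light-harvesting proteins and sulfur-shortage genes lay on the higher side.

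**Figure D1:**
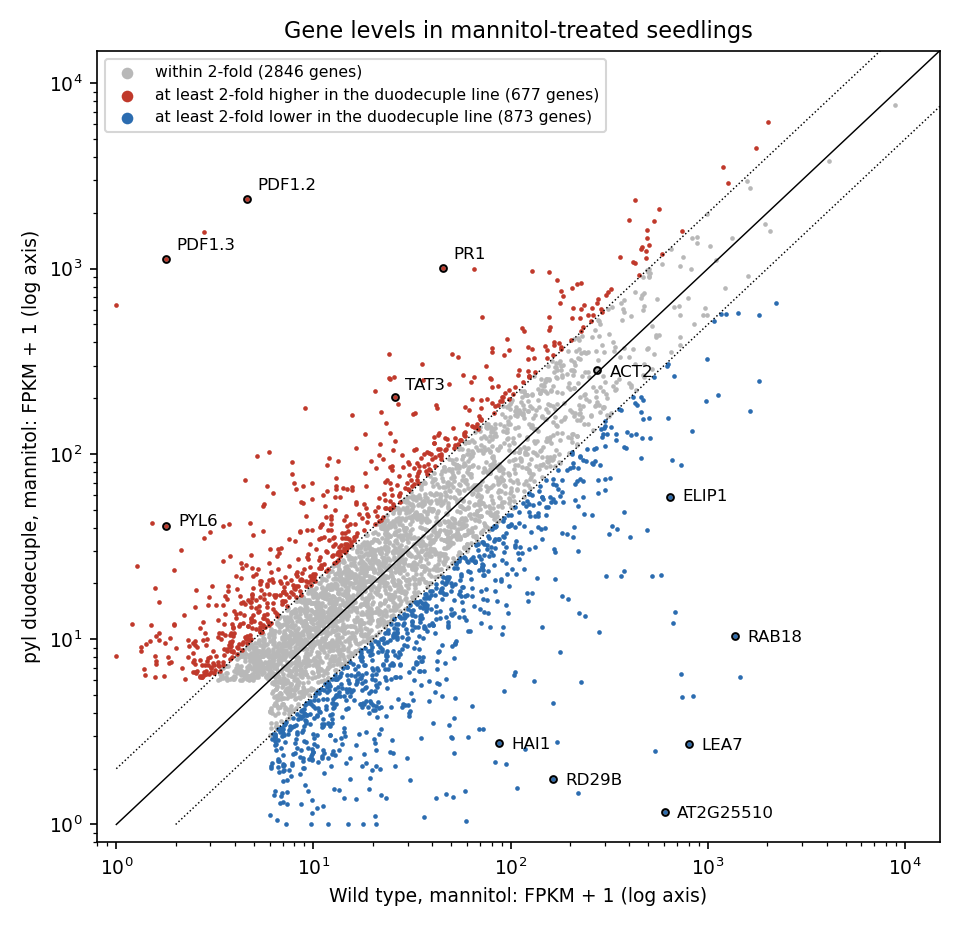
Level of each of the 4396 members in wild type (horizontal axis) and in the pyl duodecuple line (vertical axis) under mannitol, as FPKM + 1 on log axes, 1 point per gene and 1 deposited value per group. Red points (677) and blue points (873) are at least 2-fold apart, the solid line marks equal levels and the dotted lines 2-fold. RAB18 and LEA7 lie far below the line, PDF1.2 and PR1 far above it, and ACT2 on it.

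The receptor genes were examined first, because 12 of them are mutated. Of the 14 family members, 6 were in the table and 5 reached 5 FPKM. PYR1 stood at 80.1 FPKM in wild type and 93.7 FPKM in the duodecuple line, PYL8 at 78.3 and 58.2, PYL5 at 25.4 and 9.27, and PYL4 at 50.3 and 106. A value per gene does not tell an intact transcript from a disrupted one, so these levels do not check the mutations. The receptor with the widest gap was PYL6, which is not among the mutated genes: it was at 0.785 FPKM in wild type and 40.0 FPKM in the duodecuple line, a log2 ratio of 4.52. The same gene was also higher in the duodecuple line in control seedlings (16.1 against 58.1 FPKM) and under ABA (0.415 against 56.9 FPKM). PYL12, a mutated receptor, stayed below the 5 FPKM limit at 0.0761 FPKM in wild type and was listed at 0 in the duodecuple line. The other mutated receptors were not in the table.

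Every clade A PP2C gene among the members was lower in the duodecuple line, 7 of 7 by at least 2-fold, with a median log2 ratio of -2.85. These phosphatases hold back the SnRK2 kinases. HAI1 was at 85.8 FPKM in wild type and 1.75 FPKM in the duodecuple line (log2 ratio -4.98), HAI2 at 22.4 and 0.389 (-4.08), and HAI3 at 19.4 and 0.110 (-4.20). PP2CA stood at 127 and 16.8 FPKM (-2.85). ABI2, HAB1 and ABI1 differed less, with ABI2 at 33.4 and 7.003 FPKM (-2.10), HAB1 at 55.2 and 21.6 (-1.31), and ABI1 at 114 and 53.1 (-1.09). The order among the 7 genes was thus led by the HAI subgroup, whose levels in the duodecuple line were near or below 2 FPKM.

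The SnRK2 kinase genes differed less, with 3 of 6 members at least 2-fold lower, none at least 2-fold higher and a median log2 ratio of -1.02. SNRK2.6, also called OST1 and central to stomatal closure, was at 46.3 FPKM in wild type and 20.6 FPKM in the duodecuple line (-1.13). SNRK2.9 stood at 24.4 and 7.64 FPKM (-1.56) and SNRK2.7 at 5.67 and 1.21 FPKM (-1.59). SNRK2.3 was at 74.9 and 39.6 FPKM (-0.90), within 2-fold. SNRK2.5 (5.76 and 7.76 FPKM) and SNRK2.8 (8.25 and 14.7 FPKM) lay on the higher side of the duodecuple line, also within 2-fold.

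Among transcription factors known to follow ABA, 10 of 11 members were at least 2-fold lower, with a median of -1.52. HB12, a homeodomain-leucine zipper factor, was at 167 FPKM in wild type and 20.2 FPKM in the duodecuple line (-2.99). Its relative HB7 was at 300.0 and 62.9 FPKM (-2.24). MYB74 stood at 17.37 and 2.15 FPKM (-2.54), MYB102 at 6.36 and 0.495 FPKM (-2.30), and ABF3, which binds ABRE, at 52.5 and 23.2 FPKM (-1.14). The 3 related NAC factors differed among themselves: NAC019 was at 55.5 and 18.25 FPKM (-1.55) and RD26 at 72.6 and 27.3 FPKM (-1.38), whereas NAC055 was at 18.17 and 18.16 FPKM.

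Dehydration proteins showed the widest gap of all lists on the lower side. Of 27 listed genes 22 were members, 21 of them at least 2-fold lower in the duodecuple line, with a median log2 ratio of -3.48. LEA7, a LEA protein gene, was at 798 FPKM in wild type and 1.73 FPKM in the duodecuple line (-8.20). RAB18, a dehydrin, was at 1368 and 9.45 FPKM (-7.03). RD29B stood at 163 and 0.758 FPKM (-6.54) and the lipid transfer protein gene LTP4 at 836 and 3.91 FPKM (-7.41). In untreated wild type LEA7 was at 5.52 FPKM, RAB18 at 20.4 FPKM, RD29B at 1.82 FPKM and LTP4 at 2.93 FPKM, so that the first 3 were lower in the mannitol-treated duodecuple line than in wild type without treatment. LEA4-5 (118 and 1.55 FPKM), LTP3 (579 and 21.3 FPKM), LEA18 (50.4 and 1.44 FPKM) and KIN1 (362 and 20.8 FPKM) followed, with log2 ratios between -5.54 and -4.06.

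Other members of the list kept a larger share of the wild-type level. RD29A, which lies next to RD29B, was at 194 FPKM in wild type and 15.4 FPKM in the duodecuple line (-3.57). The dehydrins LTI30 (653 and 91.7 FPKM), COR47 (834 and 132 FPKM) and ERD10 (277 and 60.6 FPKM) had log2 ratios of -2.82, -2.65 and -2.17. COR15A, which protects chloroplast membranes, was at 275 and 71.2 FPKM (-1.94), and RD22 at 532 and 258 FPKM (-1.04). COR15B was the exception, at 17.7 FPKM in wild type and 31.5 FPKM in the duodecuple line (0.80), although under ABA it was at 112 and 12.4 FPKM. Reads of the neighbouring pairs COR15A and COR15B, KIN1 and KIN2, and LTP3 and LTP4, which are similar copies, may have been split between them.

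The ABRE is the element that ABF/AREB factors bind, and it was searched in the members' promoters as a description; its part in the genotype gaps was not tested. The 250 bases before the annotated gene start are shown for the 4 members of the list with the lowest log2 ratios whose window overlapped no other gene, which leaves out RAB18. They are credited to RefSeq (TAIR10.1) and written 5' to 3' on the gene's strand. Capitals mark the ABRE, searched as ACGTGGC or ACGTGTC on both strands, so that GCCACGT and GACACGT are matches on the opposite strand. The windows lie at chr1:19619474-19619723, plus strand for LEA7, chr5:23925958-23926207, minus strand for LTP4, chr5:21236771-21237020, plus strand for RD29B and chr5:2090431-2090680, minus strand for LEA4-5.
LEA7: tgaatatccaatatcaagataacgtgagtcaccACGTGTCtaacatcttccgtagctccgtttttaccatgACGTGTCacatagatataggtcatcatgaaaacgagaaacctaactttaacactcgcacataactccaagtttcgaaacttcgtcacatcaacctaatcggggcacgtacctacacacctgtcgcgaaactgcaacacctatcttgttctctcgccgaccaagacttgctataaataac
LTP4: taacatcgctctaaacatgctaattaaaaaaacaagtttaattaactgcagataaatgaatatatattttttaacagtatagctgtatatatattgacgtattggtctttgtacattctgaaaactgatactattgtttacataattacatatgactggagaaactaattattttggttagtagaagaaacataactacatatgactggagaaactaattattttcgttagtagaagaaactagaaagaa
RD29B: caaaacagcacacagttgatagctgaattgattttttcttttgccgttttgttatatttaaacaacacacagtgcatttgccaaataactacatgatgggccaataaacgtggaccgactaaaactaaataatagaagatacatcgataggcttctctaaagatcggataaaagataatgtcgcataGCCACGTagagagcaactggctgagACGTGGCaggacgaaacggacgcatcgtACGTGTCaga
LEA4-5: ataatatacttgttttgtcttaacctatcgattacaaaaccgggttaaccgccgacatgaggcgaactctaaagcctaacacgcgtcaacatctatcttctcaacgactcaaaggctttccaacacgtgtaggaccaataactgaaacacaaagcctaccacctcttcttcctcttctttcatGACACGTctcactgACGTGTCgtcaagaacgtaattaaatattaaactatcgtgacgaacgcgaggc

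RD29B holds 3 such matches, LEA7 and LEA4-5 hold 2 each, and LTP4 holds none in this window. A match was found in 6.39% of the 27443 protein-coding promoters of that length and in 9.41% of the members' promoters. The share was 13.5% among members at least 2-fold lower in the duodecuple line, 7.53% among those at least 2-fold higher and 8.62% among the rest. Among members at least 4-fold lower it was 18.3%. In the dehydration list 8 of 22 promoters held a match. Light-harvesting genes, which were higher in the duodecuple line, also held it in 5 of 16 promoters, and the salicylate and jasmonate lists in none of 21 and 22. This contrast depends on the pattern searched. The shorter core ACGTG was in 14 of 22 dehydration, 13 of 22 jasmonate, 7 of 21 salicylate and 6 of 16 light-harvesting promoters. Its share was 30.7% of the members' promoters, 39.7% of those at least 2-fold lower and 30.6% of those at least 2-fold higher.

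**Figure D2:**
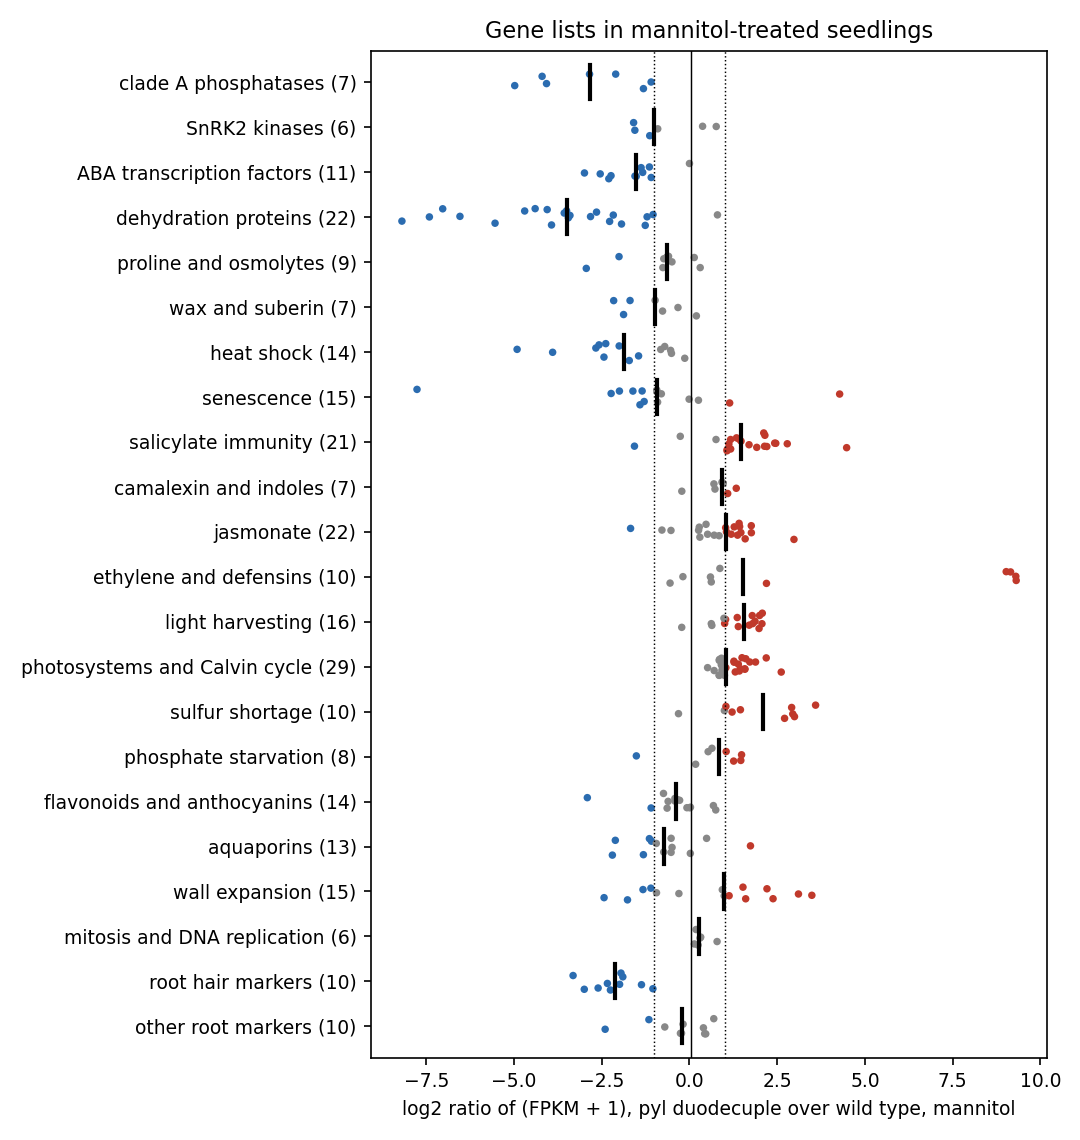
Log2 ratio of (FPKM + 1), pyl duodecuple over wild type under mannitol (horizontal axis), for the members of 22 gene lists, 1 point per gene with the number of members in brackets. Black bars are list medians, the solid line is the median of all members (0.04) and the dotted lines are 2-fold. All clade A phosphatases and all root hair markers lie left of the lower line, and the 4 points at the far right are PDF1 defensins.

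Genes of ABA turnover did not share one direction, with 3 of 7 members at least 2-fold lower, 1 at least 2-fold higher and a median of -0.41. NCED3, the key enzyme of stress-induced ABA synthesis, was at 7.499 FPKM in wild type and 5.88 FPKM in the duodecuple line (-0.30). The ABA 8'-hydroxylase genes CYP707A1, at 29.6 and 2.86 FPKM (-2.98), and CYP707A4, at 5.53 and 0.0600 FPKM (-2.62), were lower, whereas CYP707A3 was at 11.8 and 8.64 FPKM (-0.41). AAO3, which makes ABA from its aldehyde, was at 20.8 and 8.08 FPKM (-1.26). ABCG40, an ABA importer, was the gene on the higher side, at 11.9 and 31.7 FPKM (1.35). The widest gaps of the list were at CYP707A1 and CYP707A4, while AAO3 lay further apart than the hydroxylase gene CYP707A3, so the ranges of synthesis and breakdown genes overlapped.

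Osmolyte genes were closer between the genotypes than dehydration proteins, with 2 of 9 members at least 2-fold lower, none at least 2-fold higher and a median of -0.64. P5CS1, the rate-limiting enzyme of proline synthesis, stood at 215 FPKM in wild type and 152 FPKM in the duodecuple line (-0.50). Under ABA the same gene was at 226 and 32.8 FPKM (-2.75). GOLS2, for galactinol, was at 7.73 and 9.79 FPKM under mannitol (0.31) and at 11.0 and 0.920 FPKM under ABA (-2.64). On the breakdown side PRODH1, which degrades proline, was at 374 and 47.8 FPKM under mannitol (-2.94), the widest gap of the list, but at 375 and 277 FPKM under ABA. ALDH7B4, an aldehyde dehydrogenase, was at 625 and 155 FPKM (-2.01).

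Wax and suberin genes gave 3 of 7 members at least 2-fold lower and a median of -0.98, led by KCS2, which elongates fatty acids, at 34.9 and 7.03 FPKM (-2.16). CER1, of alkane synthesis, was at 12.97 and 2.799 FPKM (-1.88). In the heat shock list 9 of 14 members were at least 2-fold lower and none higher, with a median of -1.86. HSP22 was at 40.9 and 0.390 FPKM (-4.91), HSP70 at 209 and 39.2 FPKM (-2.39) and HSP18.2 at 35.5 and 5.73 FPKM (-2.44). HSFA6A, a heat stress factor gene, was at 13.9 FPKM in wild type and listed at 0 in the duodecuple line, and its relative HSFA6B was at 10.4 and 0.901 FPKM (-2.58). The other 5 members, HSFA2, HSFA7A, HSFB2A, HSP90.1 and HSP101, were within 2-fold, and all 14 ratios were below 0. Of the 18 listed genes, those below 5 FPKM were not all on that side. HSFA3 was at 0.946 and 2.27 FPKM (0.75), whereas HSP17.6II (-0.30), HSP23.6 (-0.34) and HSP21 (-1.42) had ratios below 0.

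Senescence genes gave 7 of 15 members at least 2-fold lower, 2 at least 2-fold higher and a median of -0.93. SWEET15 (SAG29), a sucrose transporter, was at 540 FPKM in wild type and 1.49 FPKM in the duodecuple line (-7.77). PAO and NYC1, which break down chlorophyll, were at 224 and 72.6 FPKM (-1.61) and at 340 and 127 FPKM (-1.41). The nuclease gene BFN1 was at 12.7 and 1.92 FPKM (-2.23). WRKY6 (42.4 and 42.1 FPKM) and WRKY75 (44.6 and 53.4 FPKM) were nearly equal in the genotypes. DIN11, a dark-inducible oxygenase gene, stood on the other side, at 8.10 and 176 FPKM (4.28).

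The widest gaps on the higher side were in PDF1 defensins, small antifungal proteins whose transcripts are known to follow joint jasmonate and ethylene signals. PDF1.2 was at 3.58 FPKM in wild type and 2387 FPKM in the duodecuple line (9.03), PDF1.2c at 1.78 and 1582 FPKM (9.15), and PDF1.3 at 0.792 and 1130 FPKM (9.30). PDF1.2b was listed at 0 in wild type and was at 635 FPKM in the duodecuple line. These genes were also higher in the duodecuple line in control seedlings, where PDF1.2 was at 91.3 and 412 FPKM, and under ABA, where it was at 0.434 and 142 FPKM. PDF1.1, a further member of the family, was at 54.1 and 47.4 FPKM under mannitol (-0.19). The coding sequences of the 5 genes, 243 bases each, are between 87.2% and 94.7% identical in RefSeq (TAIR10.1), so reads may have been shared among copies and the split between them is uncertain.

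Their regulators differed less. ORA59, the ERF factor that joins jasmonate and ethylene signals at PDF1.2, was at 10.4 FPKM in wild type and 51.3 FPKM in the duodecuple line (2.19). ERF1 was at 4.19 and 6.86 FPKM (0.60) and ERF2 at 60.8 and 94.1 FPKM (0.62). The ethylene synthesis genes ACS2 (7.29 and 4.65 FPKM) and ACS6 (21.9 and 40.7 FPKM) were within 2-fold. In all, 5 of the 10 members of the ethylene and defensin list were at least 2-fold higher and none lower, with a median of 1.53.

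ERF factors bind the GCC box, so the 250 bases before the 4 high defensin genes are shown in the same way, with the letters GCCGCC on either strand in capitals. The windows lie at chr5:17907639-17907888, minus strand for PDF1.2, chr2:11088873-11089122, plus strand for PDF1.2b, chr5:17909508-17909757, minus strand for PDF1.2c and chr2:11087030-11087279, plus strand for PDF1.3 (RefSeq, TAIR10.1).
PDF1.2: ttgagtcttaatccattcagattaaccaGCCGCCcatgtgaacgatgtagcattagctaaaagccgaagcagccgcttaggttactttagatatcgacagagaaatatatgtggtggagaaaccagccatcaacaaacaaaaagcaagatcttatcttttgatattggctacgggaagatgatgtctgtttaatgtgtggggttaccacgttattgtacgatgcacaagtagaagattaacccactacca
PDF1.2b: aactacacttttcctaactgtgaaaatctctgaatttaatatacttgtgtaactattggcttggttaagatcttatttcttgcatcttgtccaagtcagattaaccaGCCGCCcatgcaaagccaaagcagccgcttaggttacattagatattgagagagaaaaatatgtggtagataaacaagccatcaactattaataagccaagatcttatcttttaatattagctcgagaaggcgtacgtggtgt
PDF1.2c: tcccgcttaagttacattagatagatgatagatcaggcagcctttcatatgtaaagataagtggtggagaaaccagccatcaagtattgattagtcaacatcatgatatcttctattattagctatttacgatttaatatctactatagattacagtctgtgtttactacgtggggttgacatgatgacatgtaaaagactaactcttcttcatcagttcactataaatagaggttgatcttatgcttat
PDF1.3: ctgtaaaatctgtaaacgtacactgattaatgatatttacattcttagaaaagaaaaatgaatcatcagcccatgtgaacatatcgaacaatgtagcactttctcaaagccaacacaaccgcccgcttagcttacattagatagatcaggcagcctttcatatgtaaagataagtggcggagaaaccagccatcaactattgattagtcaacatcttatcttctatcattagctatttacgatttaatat

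PDF1.2 and PDF1.2b hold 1 match each, and these letters are not in the windows of PDF1.2c and PDF1.3. Bases further upstream were not searched, so this does not show that PDF1.2c or PDF1.3 lack the box. The GCC box was found in 1.87% of all 27443 promoters of that length, in 2.56% of those of members at least 2-fold higher in the duodecuple line and in 0.937% of those at least 2-fold lower. The last 2 shares rest on 17 and 8 promoters. Over all members' promoters the share was 1.78%, and over those of members within 2-fold it was 1.86%. None of the 21 salicylate and 22 jasmonate promoters held the box. It was in 3 of 10 promoters of the ethylene and defensin list and in 2 of 14 of the heat shock list, which was lower in the duodecuple line.

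Salicylate-linked immunity genes were higher in the duodecuple line, with 18 of 21 members at least 2-fold higher, 1 at least 2-fold lower and a median of 1.47. PR1, the standard marker of salicylate signalling, was at 44.4 FPKM in wild type and 1011 FPKM in the duodecuple line (4.48). PR2, a glucanase, was at 25.8 and 184 FPKM (2.79), and PR4, a chitin-binding protein often placed with jasmonate and ethylene outputs, at 428 and 2359 FPKM (2.46). ALD1 and FMO1, which make the systemic signal N-hydroxypipecolic acid, were at 0.763 and 8.49 FPKM (2.43) and at 3.96 and 21.0 FPKM (2.15). ICS1, the main salicylate synthesis gene, was at 8.92 and 21.4 FPKM (1.17). WRKY46 (11.8 and 57.9 FPKM), WRKY54 (5.71 and 28.1 FPKM) and WRKY70 (69.8 and 195 FPKM) had log2 ratios of 2.204, 2.12 and 1.47. PR3, a chitinase gene, was the one on the lower side, at 260 and 87.1 FPKM (-1.57), and EDS5 and AT5G52810 were within 2-fold.

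PR1 and PR2 had the opposite order under ABA. PR1 was then at 35.9 FPKM in wild type and 11.7 FPKM in the duodecuple line, and PR2 at 9.71 and 1.53 FPKM. In control seedlings PR1 was at 3.65 and 11.8 FPKM. Across the 21 genes the median log2 ratio was 0.42 in control seedlings and -0.13 under ABA. In control seedlings 6 of the 21 were at least 2-fold higher and none lower. Among these 6 were WRKY70 at 20.3 and 44.0 FPKM and WRKY54 at 1.27 and 4.11 FPKM.

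Jasmonate genes were higher by at least 2-fold in 12 of 22 members and lower in 1, with a median of 1.04. TAT3, a wound-response aminotransferase, was at 24.9 FPKM in wild type and 203 FPKM in the duodecuple line (2.98). The synthesis genes LOX2 (459 and 1269 FPKM), AOC2 (530 and 1801 FPKM) and OPR3 (39.8 and 122 FPKM) had log2 ratios of 1.47, 1.76 and 1.59, and LOX4 stood at 8.59 and 31.5 FPKM (1.76). Of the JAZ repressors, which hold back MYC2, JAZ10 was at 20.5 and 57.0 FPKM (1.43) and JAZ7 at 22.1 and 15.04 FPKM (-0.53). MYC2 itself was at 43.0 and 60.0 FPKM (0.47). VSP2, a vegetative storage protein, was at 407 and 236 FPKM under mannitol (-0.79), and at 178 and 19.4 FPKM in control seedlings (-3.13). CYP94B3, which inactivates the hormone conjugate, was the member on the lower side, at 35.6 and 10.4 FPKM (-1.68).

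Camalexin and indole genes gave 2 of 7 members at least 2-fold higher, none lower and a median of 0.93. PAD3, the last enzyme of camalexin synthesis, was at 89.5 and 192 FPKM (1.09), and CYP71A13 at 27.6 and 54.8 FPKM (0.96). Aliphatic glucosinolate genes were split, with MAM3 at 3.90 and 23.1 FPKM and CYP79F1 at 30.8 and 11.6 FPKM (-1.33) among 4 members, 1 at least 2-fold higher and 1 lower.

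Nuclear genes of photosynthesis were higher in the duodecuple line under mannitol. In the light-harvesting list 12 of 16 members were at least 2-fold higher and none lower, with a median log2 ratio of 1.55. LHCB3 was at 113 FPKM in wild type and 479 FPKM in the duodecuple line (2.08), LHCB6 at 155 and 544 FPKM (1.801) and LHCB5 at 356 and 1159 FPKM (1.70). LHCB1.3, the most abundant copy, was at 1753 and 4506 FPKM (1.36), while LHCB1.4 was at 41.0 and 35.03 FPKM (-0.22). Of 29 photosystem and Calvin cycle members 15 were at least 2-fold higher, all 29 had a ratio above 0, and the median was 1.04. The Rubisco small subunit genes RBCS1A and RBCS1B were at 2027 and 6167 FPKM (1.60) and at 156 and 962 FPKM (2.62), and RCA, the Rubisco activase, at 489 and 1465 FPKM (1.58). Chlorophyll synthesis genes followed with 2 of 3 members at least 2-fold higher and a median of 1.07, led by CHLH at 49.9 and 137 FPKM (1.44). Copies within the LHCB1, LHCB2 and RBCS families are close to identical, so the split of reads between them is uncertain.

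The genotypes were closer at these genes in untreated and ABA-treated seedlings. The median for light harvesting was 0.02 in control seedlings and -0.12 under ABA, and that for photosystems and the Calvin cycle was -0.11 and 0.41. LHCB3, for instance, was at 266 and 352 FPKM in control seedlings and at 143 and 155 FPKM under ABA. The summed level of the photosystem and Calvin cycle members was 61949 FPKM in wild type and 60412 FPKM in the duodecuple line in control seedlings. Under mannitol it was 15531 and 37132 FPKM, lower than in control seedlings in both genotypes. The light-harvesting sum was also lower in both, from 15888.5 and 14094.3 FPKM to 5409 and 12470 FPKM, although LHCB3 was not lower in the duodecuple line. The early light-induced gene ELIP1, a relative of the light-harvesting proteins made under stress, went the other way, at 641 FPKM in wild type and 57.9 FPKM in the duodecuple line (-3.45). It was named after its values were seen. In whole seedlings, a smaller share of green tissue and less transcript per green cell cannot be told apart, and the same holds for each tissue marker below.

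Root hair markers were lower in the duodecuple line, 10 of 10 members by at least 2-fold, with a median of -2.12. PRP1 and PRP3, wall proteins of root hairs, were at 23.57 and 1.46 FPKM (-3.32) and at 40.5 and 4.196 FPKM (-2.999). EXPA18, a root hair expansin, was at 19.7 and 3.34 FPKM (-2.25), the peroxidase gene PRX73 at 30.2 and 4.14 FPKM (-2.60), and RSL4, the factor that sets hair length, at 6.14 and 2.47 FPKM (-1.04). Of 15 listed genes 14 were in the table and 10 reached 5 FPKM, all but EXPA7 and XTH14 in wild type alone. Of the other 4, RSL2 (1.03 and 0.667 FPKM, -0.28) and IRE (1.46 and 0.569 FPKM, -0.65) were within 2-fold under mannitol. MRH6 was at 4.80 and 0.710 FPKM (-1.76), and XTH26 was at 3.22 FPKM in wild type and listed at 0 in the duodecuple line. Without mannitol the medians lay on the other side of 0, at 0.55 in control seedlings and 0.47 under ABA. PRP3 was then at 14.9 and 22.03 FPKM in control seedlings and at 9.34 and 14.5 FPKM under ABA. The summed level of the 10 markers was 225 FPKM in wild type and 38.9 FPKM in the duodecuple line under mannitol, against 93.4 and 149 FPKM in control seedlings.

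Markers of other root tissues were closer between the genotypes, and 2 of 10 members were at least 2-fold lower, none higher, and the median was -0.20. CASP1 and CASP2, of the Casparian strip, were at 16.5 and 14.4 FPKM and at 6.46 and 5.37 FPKM, and SHR, a radial patterning factor, at 4.34 and 6.203 FPKM. The 2 lower members, MRN1 (6.03 and 0.329 FPKM) and CYP705A12 (6.62 and 2.42 FPKM), both of the marneral cluster, were also lower in control seedlings, with MRN1 at 18.4 and 0.351 FPKM there. Of 5 stomatal lineage genes 3 were in the table and none reached 5 FPKM. The part of tissue composition in the results for photosynthesis and root hairs was not tested.

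**Figure D3:**
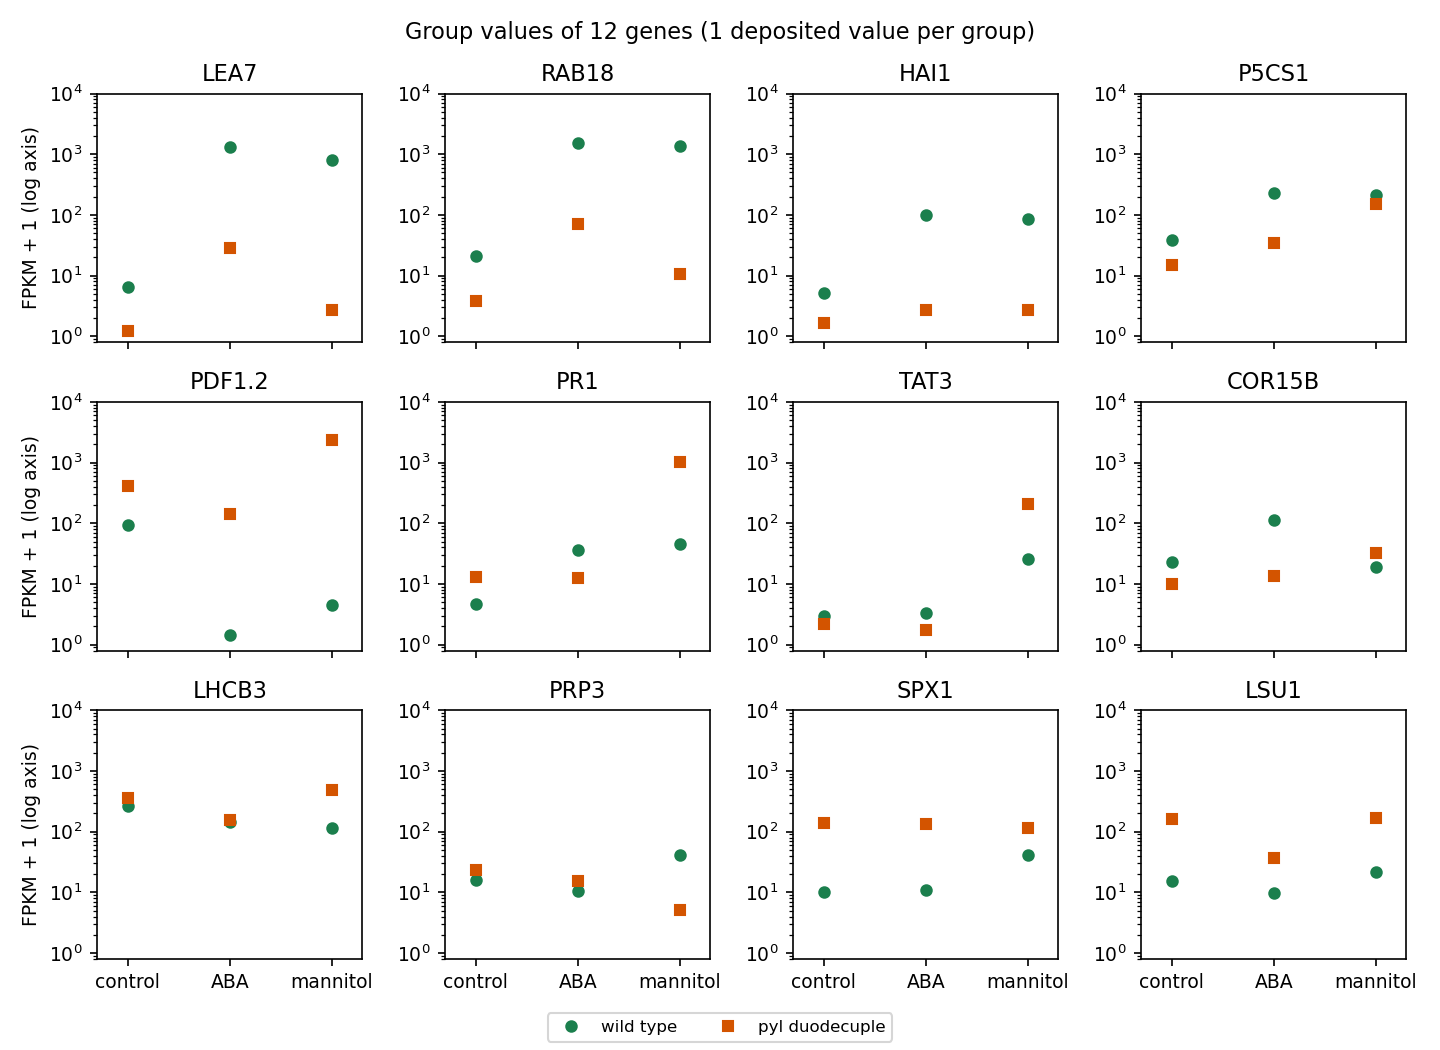
Group values of 12 genes as FPKM + 1 on log axes (vertical), by treatment (horizontal), with circles for wild type and squares for the pyl duodecuple line, 1 deposited value per group and no error. Under mannitol the genotypes lie far apart for LEA7, RAB18, HAI1, PDF1.2 and PR1 and close together for P5CS1, and PRP3 has its genotype order reversed against control and ABA.

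The sulfur and phosphate lists had medians above 0 in all 3 treatments. Sulfur-shortage genes were higher by at least 2-fold in 8 of 10 members and lower in none, with medians of 2.08 under mannitol, 2.33 in control seedlings and 1.15 under ABA. LSU1, of the LSU proteins made under sulfur deficit, was at 21.0 FPKM in wild type and 168 FPKM in the duodecuple line under mannitol (2.94), and at 14.5 and 161 FPKM in control seedlings. SDI1, a repressor of glucosinolate synthesis, was at 11.0 and 94.3 FPKM (2.99) and BGLU28, a glucosidase, at 0.965 and 22.7 FPKM (3.59). Phosphate-starvation genes had medians of 0.84 under mannitol, 2.36 in control seedlings and 1.02 under ABA, with 4 of 8 members at least 2-fold higher and 1 lower under both mannitol and ABA. SPX1, a phosphate sensor, was at 39.8 and 113 FPKM under mannitol (1.48) at 9.17 and 139 FPKM in control seedlings (3.78) and at 9.91 and 132 FPKM under ABA (3.61). Under mannitol the wild-type value of SPX1 was thus higher, and that of the duodecuple line lower, than in control seedlings. Of 4 iron genes 2 were at least 2-fold higher, such as NAS4 at 1.56 and 8.08 FPKM (1.83), and FER1, the iron store ferritin, was lower at 1073 and 523 FPKM (-1.03). The nitrate genes NRT1.8 and NIA1 were within 2-fold.

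Flavonoid and anthocyanin genes had a median of 1.28 in control seedlings, where 10 of 14 members were at least 2-fold higher, of -0.38 under mannitol and of -0.75 under ABA, where 2 were higher and 4 lower. DFR, of anthocyanin synthesis, was at 36.1 and 103 FPKM in control seedlings, at 271 and 203 FPKM under mannitol and at 238 and 82.3 FPKM under ABA. Of 14 members 2 were at least 2-fold lower under mannitol and none higher, and these were the regulators PAP1 (50.9 and 23.3 FPKM, -1.09) and PAP2 (29.9 and 3.11 FPKM, -2.91). The other 12 members were within 2-fold, among them the regulators MYB12 (4.18 and 7.31 FPKM, 0.68) and TT8 (11.1 and 6.79 FPKM, -0.64).

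**Figure D4:**
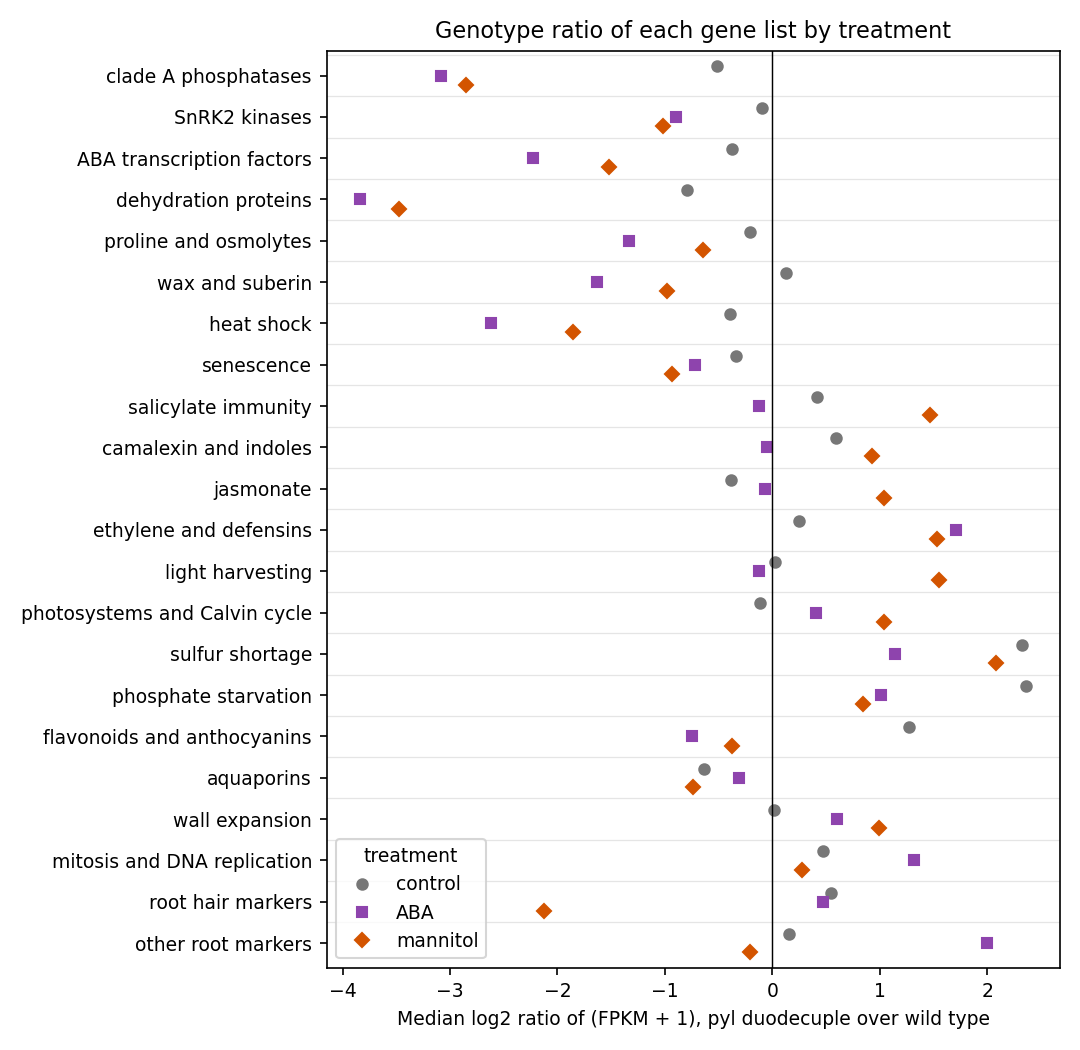
Median log2 ratio of (FPKM + 1), pyl duodecuple over wild type (horizontal axis), of 22 gene lists in control, ABA-treated and mannitol-treated seedlings, over the members of each list. The medians of the dehydration and clade A phosphatase lists lie far left under both ABA and mannitol, those of the salicylate, jasmonate and light-harvesting lists lie right of 0.9 under mannitol alone, and that of root hair markers lies left under mannitol alone.

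Growth-related lists were mixed. Of 15 wall expansion members 7 were at least 2-fold higher and 4 lower, with a median of 0.99. All 7 higher members were expansins, which loosen walls, such as EXPA8 (2.73 and 40.9 FPKM, 3.49), EXPA1 (34.5 and 304 FPKM, 3.11) and EXPA10 (20.8 and 113 FPKM, 2.38). The 4 lower members were xyloglucan endotransglucosylase genes, led by XTH24 at 1126 and 208 FPKM (-2.43) and XTH15 at 9.38 and 2.05 FPKM (-1.77). Aquaporins gave 5 of 13 members at least 2-fold lower and 1 higher, with a median of -0.73. The vacuolar TIP2;1 was at 88.1 and 19.6 FPKM (-2.11), and PIP2;3, of the plasma membrane, was the one on the higher side at 15.4 and 53.7 FPKM (1.74). PIP2;2 and PIP2;3 are near-identical neighbours, and PIP2;2 was at 77.9 and 46.4 FPKM.

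Hormone and division lists stayed mostly within 2-fold. Of 8 auxin members IAA17 was higher (12.4 and 28.7 FPKM, 1.14) and GH3.5, which conjugates auxin, lower (42.4 and 4.72 FPKM, -2.92). Of 6 type-A response regulators of cytokinin 1 was lower, ARR16 at 7.01 and 1.44 FPKM (-1.71). All 6 mitosis members were within 2-fold, with a median of 0.27, against 1.32 under ABA. Of 6 clock genes CCA1 was lower (7.30 and 2.69 FPKM, -1.17). Among 9 redox and xenobiotic members 1 was at least 2-fold lower, UGT74E2 at 61.9 and 20.02 FPKM (-1.58). Among 3 endoplasmic reticulum stress genes 1 was lower, BIP3 at 5.21 and 2.06 FPKM (-1.02), and among 3 DREB-type factors 1 was lower, RAP2.6 at 38.2 and 16.3 FPKM (-1.18). DREB2A, a factor of the ABA-independent route, was at 20.3 and 11.7 FPKM (-0.74). Of 6 listed reference genes only ACT2 was a member, at 274 and 282 FPKM (0.04). The authors called it changed by mannitol in wild type, where it was at 588 FPKM in control seedlings, so it is not a stable reference here.

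The same 4396 members were then compared in the other treatments, whose genotype ratios share no sample with those under mannitol. In control seedlings 162 were at least 2-fold higher (3.69%) and 155 lower (3.53%). Under ABA the counts were 746 higher (17%) and 870 lower (19.8%). Membership was set by the level under mannitol, which leaves out genes apart in control seedlings but low under mannitol. MGD3 (0.195 and 19.9 FPKM in control seedlings) and IPS1 (0.323 and 18.6 FPKM) were left out in this way. The control and ABA counts therefore do not cover all genes apart in those treatments. Of the 677 genes higher under mannitol, 95 were also higher in control seedlings (14.0%) and 317 under ABA (46.8%). Of the 873 lower under mannitol, 97 were also lower in control seedlings (11.1%) and 539 under ABA (61.7%). As shares of the other lists, these were 58.6% and 42.5% of the genes higher in control seedlings and under ABA, and 62.6% and 62.0% of those lower. At least 2-fold higher under mannitol but in neither other treatment were 340 of the 677 genes, and 321 of the 873 were lower in this way. A gene just under 2-fold in another treatment is counted here too, so these are not genes particular to mannitol. The log2 ratios under mannitol and ABA correlated across the 4396 genes with Pearson's r = 0.71 and Spearman's rho = 0.67, and those under mannitol and control with r = 0.43 and rho = 0.33. Genes are not independent replicates, and each ratio rests on 1 value per group.

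**Figure D5:**
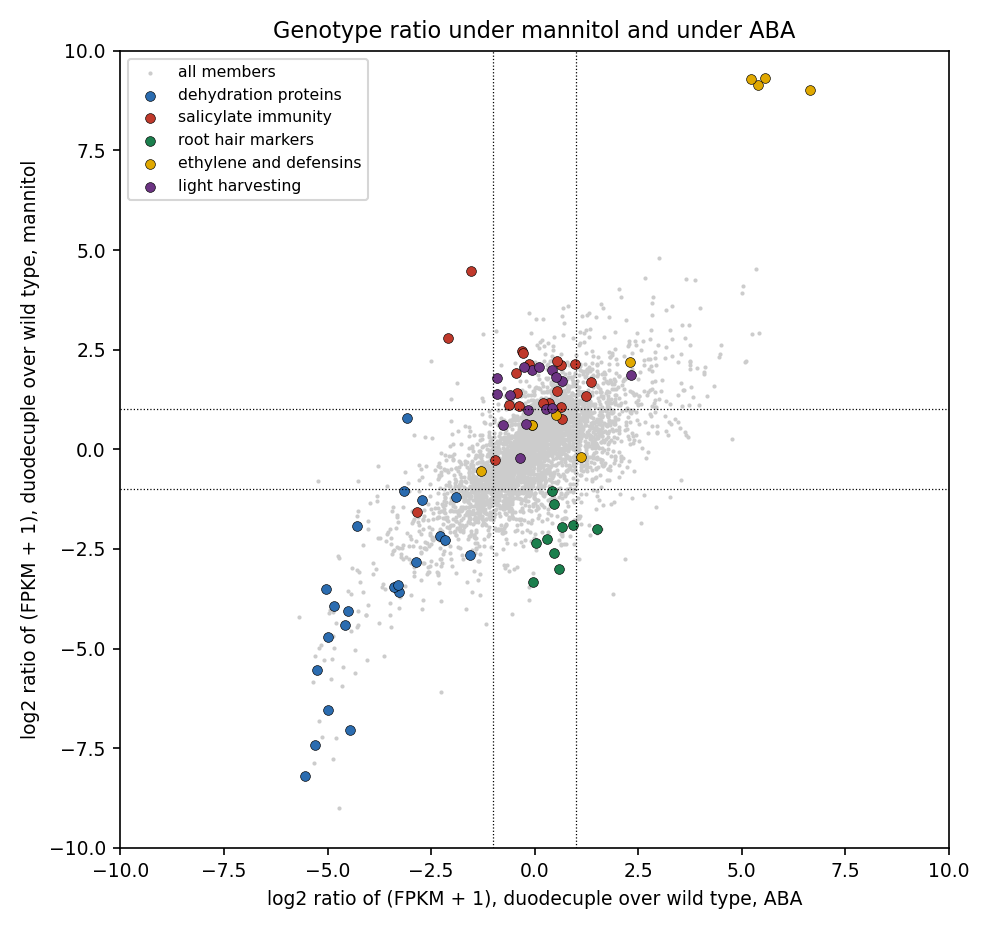
Log2 ratio of (FPKM + 1), pyl duodecuple over wild type, under ABA (horizontal axis) and under mannitol (vertical axis), 1 grey point for each of the 4396 members, with 5 gene lists in colour and dotted lines at 2-fold. Dehydration proteins lie at the lower left and the 4 high defensins at the upper right, whereas salicylate and light-harvesting genes lie mostly above, and root hair markers below, the middle of the ABA axis.

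When the control ratio was subtracted from the mannitol ratio, 673 members were at least 2-fold higher beyond control (15.3%) and 756 lower (17.2%). With every group scaled to the same table total the counts were 484 higher and 953 lower. SWEET15 (-7.22), CCD8 (-6.47), AT3G02480 (-5.89), LEA7 (-5.77) and LTP4 (-5.51) had the most negative differences. CCD8, a carotenoid cleavage enzyme of strigolactone synthesis, was at 107 FPKM in wild type and 0.582 FPKM in the duodecuple line under mannitol, and at 8.45 and 0.966 FPKM under ABA. Its wild-type level was thus higher under mannitol than under ABA. At the other end stood PDF1.3 (7.38), PDF1.2c (7.07), PDF1.2 (6.87) and AACT1 (4.42), an acyltransferase gene at 3.51 and 71.6 FPKM under mannitol, besides PDF1.2b, which was listed at 0 in wild type.

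A few members were far apart under every treatment. AT2G25510, which has no description in the table, was at 602 FPKM in wild type and 0.171 FPKM in the duodecuple line under mannitol, the lowest log2 ratio of all (-9.01), and at 485 FPKM and listed at 0 in control seedlings. AT2G25450, a 2-oxoglutarate-dependent oxygenase, was at 662 and 11.3 FPKM under mannitol (-5.75) and at 341 and 6.29 FPKM in control seedlings. Both lie on chromosome 2 near the mutated PYL2 gene, 61 and 68 annotated loci away, and PDF1.3 and PDF1.2b lie 3 and 2 loci from it. Among 301 members within 100 loci of a mutated receptor gene, 43 were at least 2-fold higher (14.3%) and 59 lower (19.6%), against 632 (15.5%) and 812 (19.9%) of 4084 members elsewhere. At least 2-fold apart in all 3 treatments were 13 of the 301 (4.32%) and 159 of the 4084 (3.89%). Around PYL2 it was 4 of 30 (13.3%), the highest share around a mutated receptor gene, against 0% to 7.14% around the others. These 4 are the genes just named for their values, so the PYL2 share is not a separate observation. The defensin copies PDF1.2 and PDF1.2c, on chromosome 5, were also at least 2-fold higher in all 3 treatments. A part of linked chromosome segments in these values was not tested.

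Among the remaining genes at the low end were 2 more LEA family genes, AT3G02480 (1462 and 5.23 FPKM, -7.87) and AT3G17520 (218 and 0.478 FPKM, -7.21). The 3 lipid-transfer and 2S albumin-like genes AT4G33550, AT2G37870 and AT3G53980 had log2 ratios of -7.24, -6.81 and -5.60. TSPO, a membrane protein known to follow ABA, was at 170 and 1.78 FPKM (-5.94), and AT5G28520, a mannose-binding lectin gene, at 58.6 and 0.0427 FPKM (-5.84). At the high end were GASA6, a gibberellin-regulated gene at 23.3 and 345 FPKM (3.83), the legume lectin gene AT3G15356 at 64.5 and 994 FPKM (3.93), and the MATE transporter gene AT3G23550 at 4.14 and 96.9 FPKM (4.25). AT4G33720, of the family that holds PR1, was at 0.267 and 23.8 FPKM (4.29). AT2G30766, AT3G16670 and AT4G12870 completed the 15 highest, with log2 ratios of 4.80, 4.11 and 3.83. Close to the 5 FPKM limit, AT1G63640 and AT1G20390 were just inside, at 5.01 FPKM in the higher group, and AT2G29370 and AT1G24130 just outside, at 4.991 and 4.998 FPKM.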

How the data were processed

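Sample labels gave the groups. TopHat, Cufflinks and Cuffdiff with TAIR10 are named by the submitters' processing notes; versions and settings are not given in the sources used here. The authors deposited 1 value per group, read here as FPKM, the unit of Cufflinks and Cuffdiff output, since the header states none. Their deposited log2 ratios of treatment over control equal the ratios of these values within 1.36e-05.

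Here, members were genes reaching 5 FPKM in either mannitol group, and log2 ratios used a pseudocount of 1 FPKM, which understates differences of low genes. With 1 value per group no model could be fitted, so nothing was tested and differences of at least 2-fold were counted; the counting was checked on simulated data. Of 560 genes in 36 lists, 343 were members. Members and lists were chosen with earlier results of these data known. Named genes are the 15 highest and 15 lowest log2 ratios and the 5 largest differences from control per direction. Also named are all listed receptors, phosphatases, kinases and reference genes that the table held, and those next to the FPKM limit. Naming up to 4 members per list with the widest gaps was planned but not followed throughout. For instance TIP2;3 (-2.20), HSP17.4 (-2.67) and DIN2 (-2.00) were passed over. Further list members were named after their values were seen. Symbols, gene order and promoters came from RefSeq (TAIR10.1), whose table matched 4385 member identifiers; 2 members were listed at 0 in wild type and 6 in the duodecuple line. Alternatives were pseudocounts of 0.1 and 5 FPKM, minima of 0, 1 and 20 FPKM, a 4-fold limit and rescaled values. A planned grouping by the wild-type mannitol response was left out, since it shares the wild-type mannitol samples with the genotype ratio. The other deposited tables were not used here. Python 3.11.15, numpy 2.4.6, pandas 2.3.3 and matplotlib 3.10.9 were used.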

Additional observations from a re-analysis of the deposited data

How the results depend on the processing

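With a 4-fold limit, 160 genes were higher and 274 lower in the duodecuple line under mannitol, and 111 were higher and 218 lower beyond the control difference. With a minimum of 20 FPKM, 2516 genes remained, of which 425 were higher and 553 lower, and 432 higher and 457 lower beyond control. The counts under mannitol stayed within 1.5 times with minima of 0 and 1 FPKM, both pseudocounts, centring and scaling. Those beyond control, run with the pseudocounts and scaling, did too, as did those of the 13 gene lists led with, run with the pseudocounts, centring and scaling. The table total was 297368 FPKM in wild type and 321906 FPKM in the duodecuple line. Scaling both to 1 total, an alternative chosen after seeing the data, moved the median of all members from 0.04 to -0.06, and the medians of the jasmonate (0.93), photosystem (0.92) and chlorophyll (0.96) lists under 2-fold; it took those of the wax (-1.08) and senescence (-1.05) lists past it. Centring on the members' median took the jasmonate (0.9997) and photosystem (0.99) medians under 2-fold and the wax median (-1.02) past it. A pseudocount of 5 FPKM took the SnRK2 (-0.81), jasmonate (0.91) and iron (0.79) medians under 2-fold, and 0.1 FPKM took those of wax (-1.05), senescence (-1.01) and wall expansion (1.17) past it. A pseudocount of 5 FPKM took 20 of 361 named or listed genes under 2-fold and a pseudocount of 0.1 FPKM took 7 past it; none of these genes changed sign. No paired analysis was possible because the table holds 1 value per group, and leaving out single libraries was not run for the same reason. Errors, depth and detection limits are unknown.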

Other observations

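Families named by the table's own descriptions were counted as well, for descriptions shared by at least 10 members. Over all 4396 members 15.4% were at least 2-fold higher under mannitol and 19.9% lower. Of 19 SAUR-like auxin-responsive genes 10 were at least 2-fold higher in the duodecuple line under mannitol and 3 lower, and their median log2 ratio was 1.13 under mannitol and -0.32 in control seedlings. Pectin lyase-like genes were higher in 5 of 12 and lower in none, with a median of 0.87. TIR-NBS-LRR resistance genes were higher in 3 of 11 and lower in none, too few to set apart from the share over all members. On the other side, polyketide cyclase and lipid transport genes were lower in 8 of 12 and higher in none, with a median of -1.57, and nodulin MtN21/EamA-like transporters in 7 of 13, with a median of -1.08. Peroxidases were lower in 14 of 34 and higher in 4, with medians of -0.78 under mannitol and 1.01 under ABA. These families were chosen after their values were seen and overlap the gene lists in part.

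A few members had opposite genotype ratios under mannitol and ABA, at 2-fold or more in both. Of the 677 genes higher under mannitol, 8 were lower under ABA (1.18%), against 19.8% of all 4396 members. Of the 873 lower under mannitol, 32 were higher under ABA (3.67%), against 17% of all members. The genes below were named after their values were seen. NATA1, an acetyltransferase known to follow jasmonate, was at 79.3 FPKM in wild type and 371 FPKM in the duodecuple line under mannitol, but at 15.6 and 1.95 FPKM under ABA. BAP2, a regulator of cell death, was at 4.11 and 15.2 FPKM under mannitol and at 4.74 and 0.556 FPKM under ABA. In the reverse group were several wall protein genes, among them EXT13, an extensin-like gene at 14.4 and 1.28 FPKM under mannitol and at 3.11 and 7.69 FPKM under ABA, and AGP13, an arabinogalactan protein at 6.74 and 1.13 FPKM under mannitol and at 9.89 and 63.2 FPKM under ABA.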
